A study of Arabidopsis thaliana with 12 samples.

Results

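The comparison set the accession Ws of Arabidopsis thaliana against the accession Col-0 across both temperatures of a heat shock experiment. It used all 4 Ws arrays and all 4 Col-0 arrays, 8 of the 12 arrays of the series, chosen by the accession in the sample labels. RNA was taken from 7-day-old seedlings grown on plates at 22 °C, either kept there (control) or after 1 h at 37 °C (heat), and hybridised to Affymetrix arrays, with 2 biological replicates for each accession and temperature. The other 4 arrays come from QK, sampled in the same way. QK lacks 4 heat shock factors, the transcription factors that switch on the response to heat. From what is known of the line, it was built by crossing mutants of both accessions, so that its genome mixes Ws and Col-0. Here QK served to estimate the spread and is described beside both accessions. The accessions carry no mutation or transgene in the labels, and the labels give no number of seedlings behind an array. Since whole seedlings were sampled, fewer cells of a type and less RNA per cell cannot be told apart.

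Ws and Col-0 are inbred natural accessions that differ by many sequence variants, among them changes in regulatory DNA and genes present in one accession and deleted in the other. Genes of defence, such as immune receptors, small antimicrobial proteins and enzymes of defence compounds, are known as a variable part of the Arabidopsis genome. The array measures each RNA through short probes designed on the sequence of Col-0. A lower signal in Ws may therefore come with less RNA or with a poorer match to the probes, and the 2 cannot be told apart for any gene below.

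Before any gene is compared, 1 pair of arrays stands against its labels. The median log2 level of 6 heat shock genes, on the scale log2(signal + 16) used throughout, was 5.10 in Col-0 replicate 1 under the control label and 12.79 under the heat label. In Col-0 replicate 2 it was 12.76 under the control label and 5.09 under the heat label. In Ws it was 5.07 and 5.18 in the control arrays and 12.64 and 12.65 in the heat arrays. Each accession and replicate number thus held 1 array with high and 1 with low heat shock genes, whichever label it carried. The control and heat array of an accession were averaged within each replicate number, so that exchanging the labels of the Col-0 replicate 2 pair leaves every mean as it is, and the accessions were compared by these means. Values for single arrays below keep the labels and are given in the order control replicate 1, control replicate 2, heat replicate 1 and heat replicate 2. Array medians lay between 75.6 and 87.3 signal units. Leaf genes were bright in every array, with RCA, the activase of the carbon-fixing enzyme, between 8543 and 14175 in Ws and Col-0. The root hair expansins EXPA7 and EXPA18 lay between 27.6 and 134.1, and none of these 3 genes was called between the accessions.

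In Ws, 40 probe sets were higher than in Col-0, which is 0.293% of the 13631 tested, and 64 were lower, which is 0.47%. Together 104 were called, or 0.763%, at an adjusted p under 0.05 and at least 2-fold in a limma fit blocked by replicate number. The log2 differences of the lower probe sets ran from -5.96 to -1.05 with a median of -1.74, and those of the higher ones from 1.00 to 6.04 with a median of 1.29. Among the lower probe sets 24 differed at least 4-fold, and among the higher ones 5. All 104 had the same sign in replicates 1 and 2, against 65.3% of all probe sets tested. The calls were made from these same 2 replicates, so this agreement follows largely from the selection. The median difference over all probe sets tested was 0.043. The plot of the difference in each replicate shows the 104 along the diagonal, outside the dense cloud of the other probe sets.

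**Figure D1:**
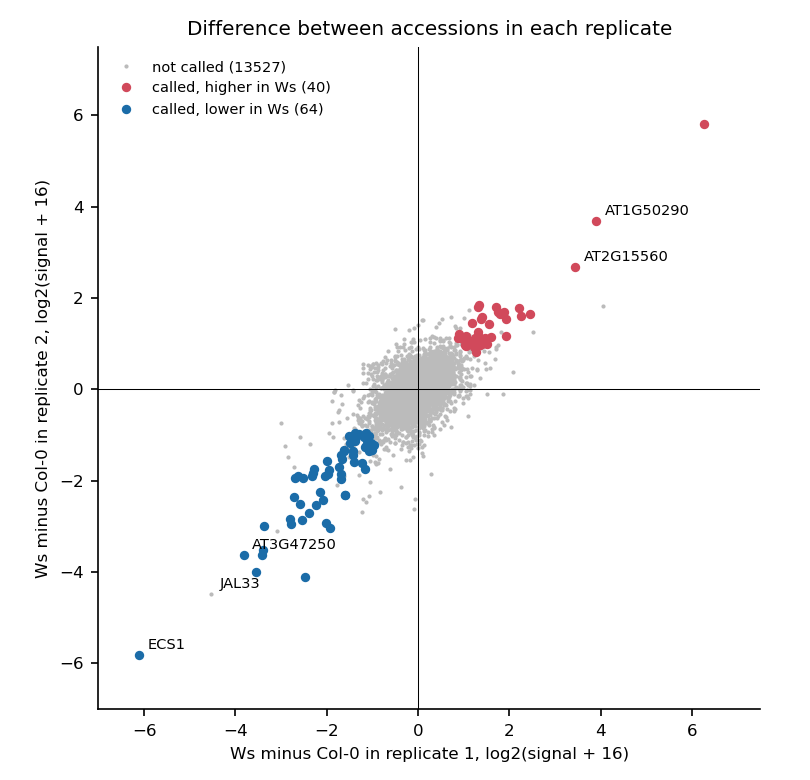
Log2 difference of Ws minus Col-0 in replicate 1 (horizontal axis) and replicate 2 (vertical axis), 1 point for each of 13631 probe sets. The 40 called higher and the 64 called lower in Ws have the same sign in both replicates, from which they were called. ECS1 lies lowest and an unnamed probe set highest, and JAL33 lies near the diagonal although it was not called.

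The count depends on how the replicates enter the fit. Without the replicate block 1 probe set was higher and 14 were lower, and all 15 were among the 104. In a fit to the Ws and Col-0 means alone, with the block, 67 were higher and 119 lower, and all 104 were among these 186. Without the Col-0 replicate 2 pair, whose labels stand against its heat shock genes, limma called 3 higher and 5 lower, and 7 of these 8 were among the 104. Leaving out Col-0 replicate 1 left 0 higher and 1 lower, with 1289 probe sets at an unadjusted p under 0.05. Leaving out Ws replicate 1 left 0 and 17, and leaving out Ws replicate 2 left 1 and 15.

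A count without a model asks whether the arrays overlap at all. All 4 Ws arrays lay above all 4 Col-0 arrays, with at least 2-fold between the means, for 44 probe sets (0.323%). All 4 lay below all 4 Col-0 arrays for 101 (0.741%). Of the 104 called probe sets 85 were apart in this way. With any 1 replicate of Ws or Col-0 left out fewer arrays had to be apart, and the counts were 67 to 153 and 162 to 228. This count uses no treatment label, and the arrays of the replicate 2 pair had to lie on the Col-0 side with the others.

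Annotation limits what can be named. Of the 104 called probe sets 68 had exactly 1 gene, 7 had several and 29 had none in the annotation used. Counted once per gene, with the brightest probe set where a gene had several, 30 genes were higher and 37 lower of 7224. The lower probe sets included 11 with every Ws array under 16 units, the amount added before the logarithm, so that their log2 differences understate the ratio of the signals. Among the higher probe sets this held for Col-0 in 1.

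The largest difference at a named gene was at ECS1, a protein of the cell wall. Its signal was 3556, 1745, 2366 and 1767 in the Col-0 arrays, and 32.4, 11.4, 20.6 and 20.2 in the Ws arrays. Every Col-0 array was bright and every Ws array dim, at control as at heat. The mean over the replicates was 2358 ± 852 in Col-0 and 21.2 ± 7.57 in Ws (SD, n = 2), a log2 difference of -5.96 (SE 0.14, limma adjusted p = 0.000584). ECS1 was called under all alternatives that give a test, and it was the 1 probe set still called without Col-0 replicate 1.

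The gene AT3G47250 came next among the called genes. It read 374.6, 160.0, 271.7 and 514.9 in Col-0 and 7.8, 8.1, 7.6 and 9.2 in Ws, a log2 difference of -3.73 (SE 0.12, limma adjusted p = 0.00119). AT1G23960 read 236.1, 169.2, 288.9 and 236.6 in Col-0 and 11.2, 12, 10.6 and 10.1 in Ws, a log2 difference of -3.18. In both, the Ws arrays differed from each other by a few units, at the dim end of the array, while Col-0 was well above the array median. AT5G44580 differed in another way, between a high and a moderate signal. It read 3247, 3387, 2376 and 3215 in Col-0 and 370.3, 351.9, 412.9 and 491.1 in Ws, a log2 difference of -2.86 (SE 0.11, limma adjusted p = 0.00184), so the Ws arrays stayed several times above the array median.

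The other genes among the 12 lowest in Ws were AT1G73490, AT1G66100, AT1G23130, AT5G26270, AT5G22580, AT1G35612, AT1G67865 and AT1G67860. Their log2 differences lay between -3.46 at AT1G73490 and -2.20 at AT1G67860. The last 2 carry neighbouring locus numbers and were both dim in Ws, with 15.5 to 25.4 units at AT1G67865 and 37.6 to 67.4 at AT1G67860, against 88.2 to 248.8 and 223.9 to 400.0 in Col-0. In AT1G23130 and AT5G22580 the replicates differed as well as the accessions. AT5G22580 read 1011, 363.8, 1012 and 286.9 in Col-0 and 135.9, 67.5, 149.3 and 77.7 in Ws. Both accessions were lower in replicate 2, and the block removes this shared shift from the comparison. The plot of the signals of the leading genes shows each array.

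**Figure D2:**
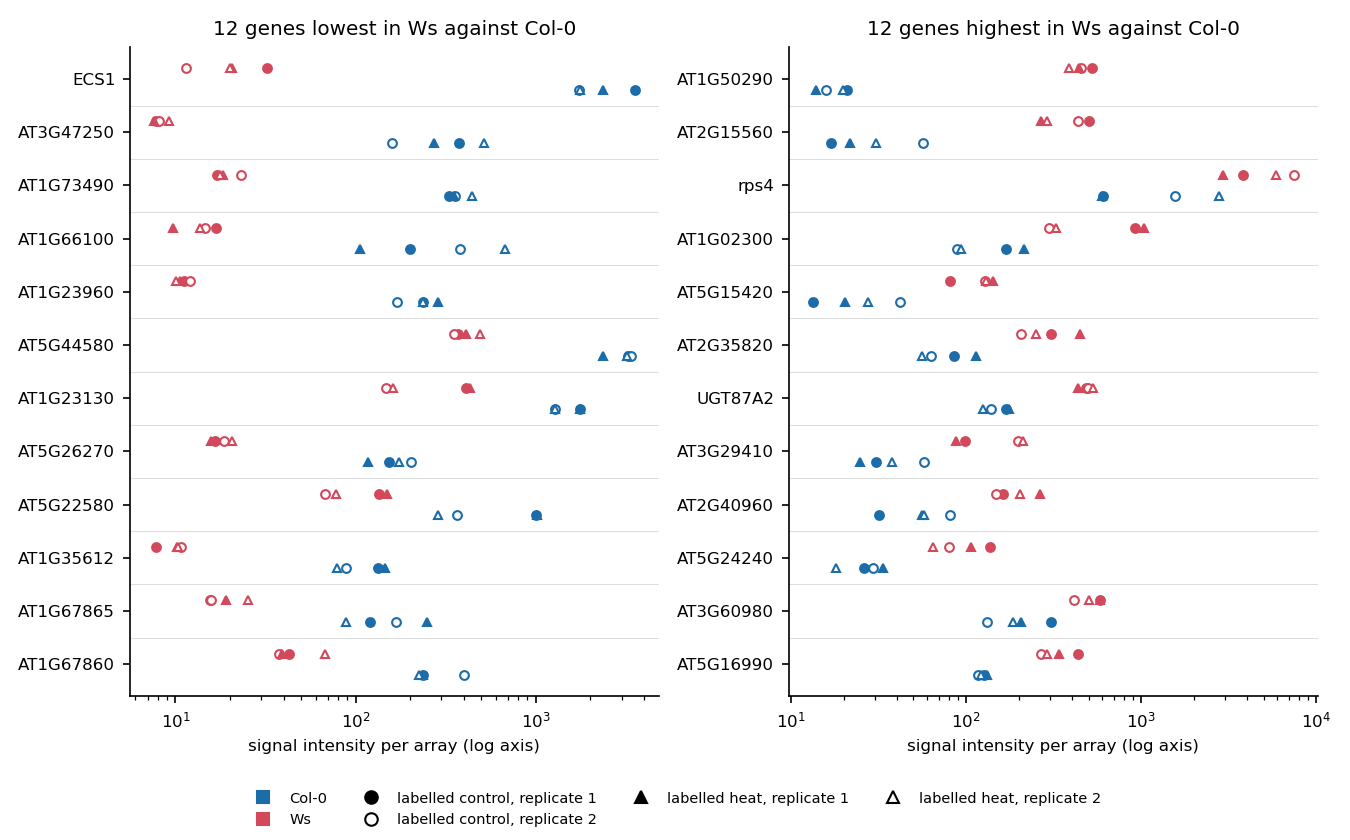
Signal intensity on a log axis in each of the 4 Col-0 (blue) and 4 Ws (red) arrays, for the 12 called genes with the lowest (left) and the 12 with the highest (right) log2 difference whose arrays do not overlap. Circles are arrays labelled control and triangles arrays labelled heat, filled for replicate 1 and open for replicate 2. In ECS1 the Ws arrays lie between 11.4 and 32.4 and the Col-0 arrays between 1745 and 3556.

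Among the listed genes of defence, few had a probe set with exactly 1 gene. The lists need not hold every gene of a class. Of the 42 listed intracellular immune receptors 1 was measured, CSA1, a receptor of the TIR-NBS-LRR class. CSA1 was called lower, which says nothing about the class as a whole. It read 72.7, 41.9, 47.6 and 49.3 in Col-0 and 11.6, 11.1, 14.1 and 13.3 in Ws, a log2 difference of -1.25 (SE 0.14, limma adjusted p = 0.0336). Of the 23 genes on the list for immune perception at the cell surface 2 were measured, BIK1 and SD1-29. They had log2 differences of 0.09 and -0.12 and were not called. Families were gathered by gene symbol and synonym, so genes known only by a locus number may be missed. Of 3 measured members found in this way for the defensin and thionin family 0 were called over all probe sets tested. The defensin PDF1.2 and the defensin-like LCR67 had log2 differences of 0.57 and 0.08. THI2.2, a thionin, was the 1 member apart in all arrays by at least 2-fold, with 234 to 815 units in Col-0 and 113 to 132 in Ws (log2 difference -1.70, limma adjusted p = 0.0802). RALFL27, a small secreted peptide of the RALF family named here after its values were seen, was called lower, with 40.3 to 81.6 units in Col-0 and 12.5 to 19.1 in Ws.

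Of 7 measured genes of ER bodies and lectins, which store and bind defence proteins in seedlings and roots, 0 were called, and 6 had a negative difference (median -0.35). JAL33, a jacalin-type lectin, had the second largest difference of all named genes. It read 1503, 1102, 1026 and 1281 in Col-0 and 44.6, 36.1, 33.0 and 39.1 in Ws, with no overlap. The log2 difference was -4.51 (SE 0.73, limma adjusted p = 0.0731), and it was -4.53 in replicate 1 and -4.49 in replicate 2. The QK arrays, which enter the estimate of the spread, read 45.2, 1760, 878.9 and 1679 for this gene. In the fit to the Ws and Col-0 means alone the limma adjusted p was 2.19e-05, and over all tested alternatives it ran up to 0.424. ZW9 showed the same arrangement. It read 728.9, 255.0, 256.2 and 717.1 in Col-0, 60, 63.9, 20.6 and 18.3 in Ws, and 43.5, 1136, 358.9 and 365.5 in QK (log2 difference -3.09, limma adjusted p = 0.0838). NAI2, a protein that forms ER bodies, had a log2 difference of -0.86, and its Ws and Col-0 arrays overlapped.

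Single enzymes of specialised metabolism were called, beside 30 higher and 37 lower of all 7224 genes. With 1 call in a family, nothing is said about the family as a whole. Of 10 measured cytochrome P450 genes 1 was called, CYP71B26, lower in Ws with 57.5 to 69.6 units against 116.4 to 302.2 in Col-0 (log2 difference -1.26, SE 0.15, limma adjusted p = 0.0336). Of 23 UDP-glycosyltransferases, which attach sugars to small molecules, 1 was called. UGT87A2 read 169.2, 137.8, 175.8 and 125.4 in Col-0 and 482.8, 497.4, 435.6 and 529.4 in Ws, a log2 difference of 1.59 (SE 0.16, limma adjusted p = 0.0277). The median differences of the 2 families were 0.059 and 0.015, close to the 0.047 of all genes. Of 7 measured genes of glucosinolate synthesis 0 were called, 5 were negative and the median was -0.268. BCAT4, the aminotransferase at the entry of methionine into this pathway, was lower in all 4 Ws arrays (284 to 389.7) than in all 4 Col-0 arrays (527.7 to 662.1), with a log2 difference of -0.86 (limma adjusted p = 0.321). Of 4 measured glutathione transferases of the chosen list, enzymes of detoxification, 0 were called, and the median was 0.214.

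At the high end in Ws, AT1G50290 read 20.9, 15.9, 13.8 and 19.8 in Col-0 and 523.7, 452.0, 439.5 and 384.4 in Ws. The log2 difference was 3.79 (SE 0.30, limma adjusted p = 0.0134). AT2G15560 read 17.0, 56.6, 21.6 and 30.7 in Col-0 and 500.5, 434.6, 268.8 and 289.6 in Ws, a log2 difference of 3.06 (SE 0.23, limma adjusted p = 0.0129). In both, every Ws array was several times above every Col-0 array. The largest difference of all was at 263174_at, a probe set to which the annotation assigns no gene. It read 9.7 to 14.2 in Col-0 and 1493 to 2474 in Ws, a log2 difference of 6.04 (SE 0.59, limma adjusted p = 0.0259).

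The other genes among the 12 highest in Ws had log2 differences between 1.31 and 2.06. They were rps4, AT1G02300, AT5G15420, AT2G35820, UGT87A2, AT3G29410, AT2G40960, AT5G24240, AT3G60980 and AT5G16990. AT1G02300 read 169.2, 89.1, 215.0 and 93.4 in Col-0 and 920.6, 298.1, 1031 and 325.3 in Ws. It was lower in replicate 2 in both accessions, and Ws exceeded Col-0 in each replicate. AT5G16990 was even in Col-0, with 116.1 to 130.7 units, and lay between 268.2 and 437.8 in Ws. CYTC6A, a cytochrome of the plastid named here after its values were seen, was called higher, with 137 to 276 units in Col-0 and 360 to 765 in Ws (log2 difference 1.24).

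Single probe sets of organelle genes were called. Of 66 measured plastid genes 1 was called, rps4, a protein of the plastid ribosome. It read 601.5, 1567, 597.8 and 2764 in Col-0 and 3821, 7434, 2946 and 5860 in Ws, a log2 difference of 2.06 (SE 0.21, limma adjusted p = 0.0277). The median of the 66 was 0.157, and petG, the next highest, had 0.798. The mitochondrial gene nad1, a subunit of respiratory complex I, was measured by 5 probe sets. At 257322_at the Ws arrays lay between 8.4 and 9.3 and the Col-0 arrays read 16.1, 138.6, 176.9 and 13.5, a log2 difference of -1.56 (limma adjusted p = 0.0217). The brighter Col-0 arrays of this probe set were those with high heat shock genes. The other 4 probe sets of nad1 were not called and had differences between -0.43 and 0.02. At 257321_at the Ws arrays read 34.0, 23.4, 411.7 and 612.7, bright in the heat arrays, while 257322_at was dim in the same arrays. Transcripts of mitochondrial genes have near-copies in the nuclear genome, and the assignment of such probe sets is uncertain.

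The called differences were then set against the temperature of the Ws arrays. For 85 of the 104 called probe sets the Ws control arrays and the Ws heat arrays both lay outside the range of the 4 Col-0 arrays. For 14 the heat arrays lay outside it and at least 1 control array inside, 10 on the higher and 4 on the lower side. For 4 the control arrays lay outside and at least 1 heat array inside, and for AT1G52200 this held for neither pair. These arrangements use no Col-0 treatment label, and the difference between the temperatures was not tested. They follow the temperature in Ws only, so probe sets that vary with the heat state of the Col-0 arrays can be among the 85. AT2G07777, for example, read 20.8, 261.0, 196.0 and 13.3 in Col-0 and 9.0 to 12.9 in Ws. Its brighter Col-0 arrays were those with high heat shock genes.

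AT1G50110 read 40 and 52.2 in the Ws control arrays and 931.5 and 749.3 in the Ws heat arrays, against 54.9 to 78.5 in all Col-0 arrays. Its log2 difference over both temperatures was 1.5 (SE 0.12, limma adjusted p = 0.0145). AT4G27890 read 21.7 and 30.1, then 328.3 and 322.4 in Ws, against 12.4 to 26.7 in Col-0 (log2 difference 1.76). The averaged value of such a gene describes neither temperature. AT2G32760, AT5G55640 and AT5G43560 had the same arrangement, with 583.3 to 1096 units in the Ws heat arrays and 113.0 to 210.7 in the Ws control arrays. SQN, a cyclophilin that works with the chaperone HSP90, read 28.6, 48.7, 185.7 and 185.9 in Ws, with a log2 difference of 1.00. In Col-0 it read 15.6, 77.8, 50.3 and 21.3, and the higher values were in the arrays with high heat shock genes. In the opposite arrangement, AT5G02140 read 131.9 and 104.6 in the Ws control arrays and 24.2 and 18.1 in the Ws heat arrays, against 11.9 to 18.6 in Col-0. The genes of this arrangement were chosen for it after their values were seen.

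**Figure D3:**
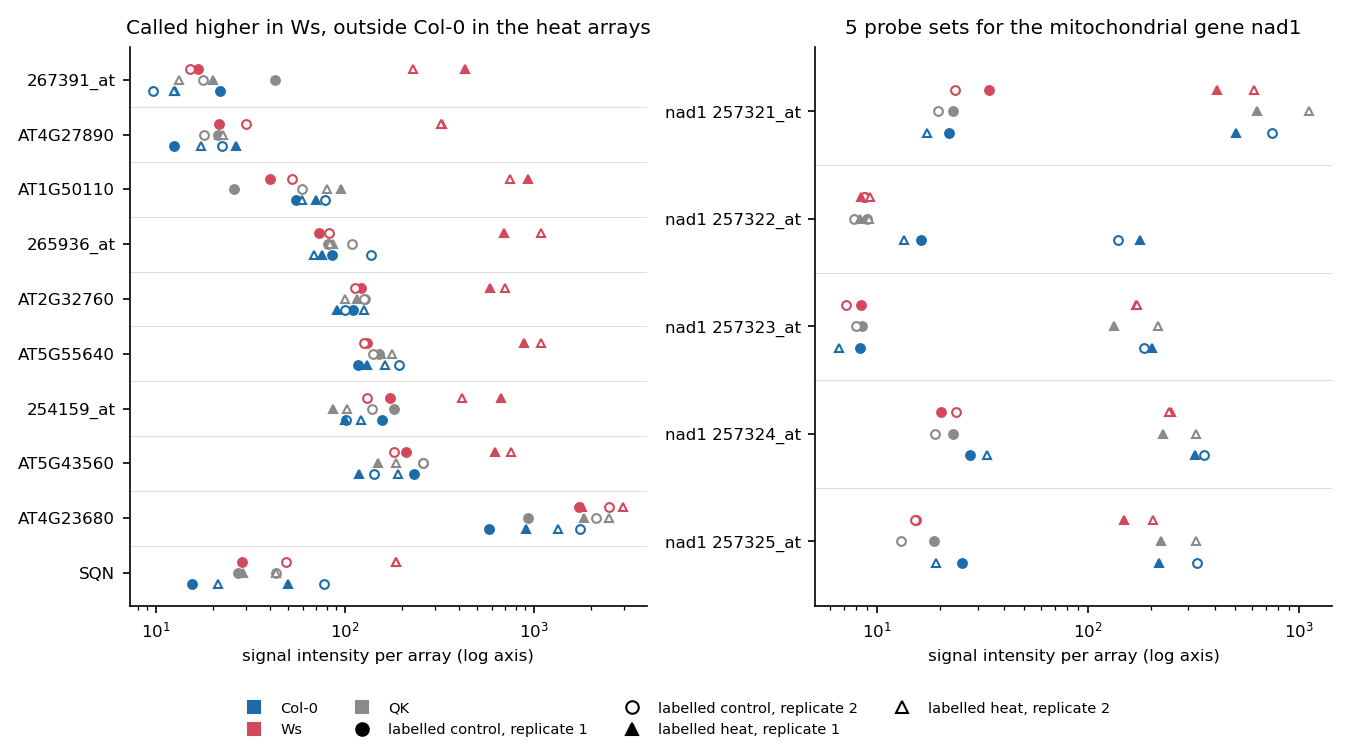
Signal intensity on a log axis in each Col-0 (blue), Ws (red) and QK (grey) array, with circles for control and triangles for heat, filled for replicate 1 and open for replicate 2. The left panel shows 10 probe sets called higher in Ws whose Ws heat arrays lie outside the Col-0 range, and AT1G50110 reaches 749.3 to 931.5 there. The right panel shows 5 probe sets of nad1, of which 257322_at stays between 8.4 and 9.3 in Ws.

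Several groups showed no called member. Over all genes 30 of 7224 were called higher and 37 lower. At that share 0 called among so few genes says little about a group, here as in the lists above. The 6 measured heat shock genes had a median difference of 0.012, with 0 called, 4 positive and 2 negative. Averaging with a dim array reduces any difference between the bright arrays of these genes. ATHSP22.0 had the lowest difference, -0.52. It read 7620.5 and 6968.5 in the Col-0 arrays with high heat shock genes, and 3931.7 and 3564.3 in the Ws heat arrays. The flowering time list had 3 measured genes and the clock list 3, with medians of 0.116 and 0.287 and 0 called. In the clock list the replicates differed more than the accessions. GI, a clock component that sets flowering by day length, read 438.6, 60, 363.3 and 75 in Col-0 and 552.1, 108.7, 369.7 and 89.4 in Ws, high in replicate 1 and low in replicate 2 in both. Of 4 cold response genes 0 were called. LTI30, a dehydrin that accumulates in the cold, was lower in every Ws array (353.7 to 705.3) than in every Col-0 array (758.4 to 1459), with a log2 difference of -1.23 and a limma adjusted p of 0.241. Peroxidases (8 genes), MADS-box factors (6), photosystem and light-harvesting proteins (5) and histones (4) had 0 called, with medians between -0.191 and 0.127. The lists for cell surface perception, photoreceptors, tryptophan synthesis, phenylpropanoids, jasmonate, terpenes, shoot, root and reference genes had 0 called. The lectin, glutathione transferase and chaperone families had 0 called as well. Each of these lists and families had 1 to 9 measured genes, with medians between -0.418 and 0.326. HTB11, a histone H2B named after its values were seen, was apart in all arrays, with 33.8 to 284 units in Col-0 and 8.5 to 10.5 in Ws (log2 difference -2.07, limma adjusted p = 0.12).

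The genes apart between the accessions were spread over the genome. By reference gene order, 25 of 1868 measured genes on chromosome 1 were apart by at least 2-fold, 11 of 1067 on chromosome 2, 18 of 1446 on chromosome 3, 9 of 1033 on chromosome 4 and 23 of 1714 on chromosome 5. The shares ran from 0.87% to 1.34%. Among genes placed by the reference, no neighbouring measured genes were called in the same direction (0 runs), and AT1G67865 was not placed. One pair of neighbours was apart without a call, AT3G28310 and AT3G28320 on chromosome 3, both higher in Ws. AT3G28320 read 25.8, 34.0, 46.4 and 24.8 in Col-0 and 1041, 167.5, 669.8 and 122.5 in Ws, and its Ws values were lower in replicate 2.

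Each QK array was set against the midpoint between the Ws and Col-0 means of a probe set. By this rule an array falls on 1 side or the other even where it resembles neither accession. UGT87A2 read 211.3 to 407.7 in QK, between the Col-0 and the Ws arrays. AT2G40960 read 15.4 to 21.5 in QK, below the arrays of both accessions. The sides over all probe sets tested are not given here. Of the 145 probe sets apart by at least 2-fold, all 4 QK arrays lay on the Ws side for 72, all 4 on the Col-0 side for 29, and on both sides for 44. Of the 35 apart by at least 4-fold the counts were 21, 7 and 7. Without Col-0 replicate 1 the counts at 2-fold were 158, 35 and 188, and without Ws replicate 2 they were 81, 65 and 168. Without Ws replicate 1 they were 78, 59 and 92, and without Col-0 replicate 2 they were 102, 37 and 140. AT3G47250 was Ws-like, with 6.6 to 8.4 units in QK, as was rps4, with 2637 to 7600. ECS1 was Col-0-like, with 1313 to 2262 units, as was AT5G44580, with 2356 to 3660.

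On chromosomes 2, 3 and 5 neighbouring genes often lay on the same side, as the plot in gene order shows. The borders below were chosen after the values were seen. On chromosome 5 the 12 genes before THI2.2, from AT5G01015 to AT5G26270, had all 4 QK arrays on the Ws side. Of the 11 genes from THI2.2 to AT5G56910, 0 had all 4 on the Ws side, 8 had all 4 on the Col-0 side and 3 lay on both sides. On chromosome 2 the 4 genes up to AT2G21045 were on the Ws side, and of the 7 from AT2G25980 on, 5 were on the Col-0 side and 2 on both. On chromosome 3, 12 of the 14 genes from CYP71B26 on were on the Ws side, and the 4 before it lay on both sides. On chromosome 4 the sides were mixed, with 6 of 9 genes on the Ws side, 1 on the Col-0 side and 2 on both.

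The QK arrays also differed from each other. On chromosome 1, 14 of the 19 genes from ECS1 on had QK arrays on both sides. Over the 145 probe sets QK control replicate 1 was alone on the Ws side for 11, among them JAL33, ZW9 and AT1G58025, and QK heat replicate 1 for 7, among them AT1G73490 and AT1G63880. AT1G73490 read 319.4, 347.3 and 370.1 in the other QK arrays, close to the 330.5 to 443.8 of Col-0, and lay within the Ws range of 17.1 to 23.2 in QK heat replicate 1. The unnamed probe set 263174_at read 780 in QK control replicate 1 and 10.1 to 12.6 in the other QK arrays. QK control replicate 2 and QK heat replicate 2 were each alone on the Ws side for 1. On the Col-0 side QK control replicate 1 was alone for 3 and control replicate 2 for 6. QK heat replicate 1 was alone there for 3 and heat replicate 2 for 4. This spread within QK enters the error of the comparison at these genes.

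**Figure D4:**
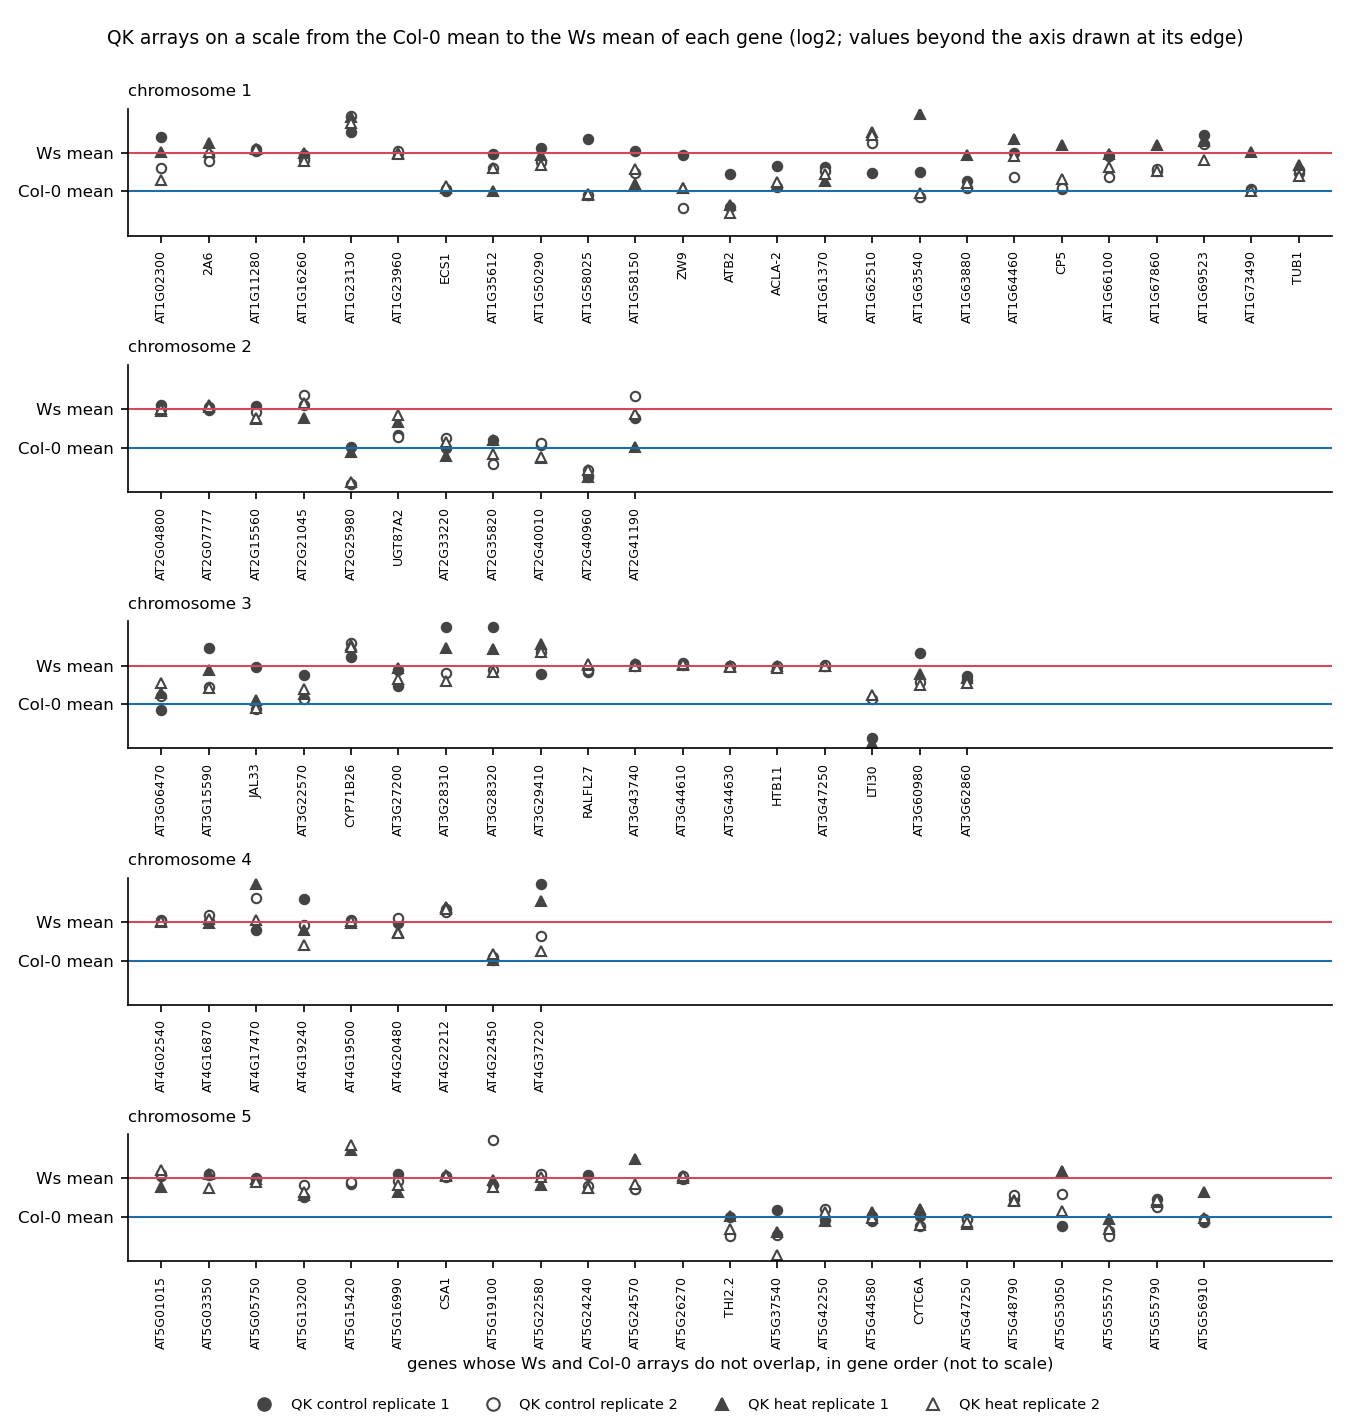
Position of each QK array between the Col-0 mean (blue line) and the Ws mean (red line) of a gene on the log2 scale, for the genes of chromosomes 1 to 5 whose Ws and Col-0 arrays do not overlap and differ at least 2-fold, in gene order and not to scale. Circles are control and triangles heat arrays, filled for replicate 1 and open for replicate 2. On chromosome 5 all QK arrays lie on the Ws side of the midpoint between the lines in the first 12 genes. From THI2.2 on they all lie on the Col-0 side in 8 genes and on both sides in 3.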

How the data were processed

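The authors deposited a linear signal intensity for every probe set on every array, and GCOS 1.4 is named in the submitters' processing notes. The summary algorithm, scaling target and detection calls are not given in the sources used here. The table held 18465 probe sets, of which 10396 had exactly 1 gene in the annotation used, 398 several and 7671 none. Names and gene order came from a reference table of assembly TAIR10.1, matched for 10340, and gene roles in the text are background knowledge. No further normalization was applied. The signal was used as log2(signal + 16), and testing required a rank above the 35th percentile in 2 or more of the 12 arrays.

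The control and heat arrays of each line and replicate number were averaged on the log2 scale, giving 6 means. The model (R 4.3.3, limma 3.58.1) had line, replicate block and a variance trend, with 2 residual degrees of freedom, two-sided tests and Benjamini-Hochberg adjustment over 13631 probe sets. The replicate numbers pair the samples: across probe sets, the differences between replicates correlated at 0.856 for Col-0 and Ws, 0.731 for Col-0 and QK and 0.715 for Ws and QK. The labels call the replicates biological, and the number of arrays limits the precision. The fit was tested on simulated data. The members, the gene lists and the tests were chosen with earlier results of these data known. Named genes are the 12 highest and 12 lowest called genes whose arrays do not overlap, up to 3 called members per list and direction or otherwise its 2 largest differences, and up to 2 called per family and direction. Other named genes were chosen after their values were seen. Of 20 lists, 17 had a measured gene, and of 19 families 10 had. Alternatives were other normalization, pseudocounts, filters, thresholds and averaging, no trend, no replicate block, QK left out, replicate 1 alone, and each replicate left out.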

Additional observations from a re-analysis of the deposited data

How the results depend on the processing

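With the replicate block 40 probe sets were higher and 64 lower in Ws. Without it the comparison was unpaired and gave 1 and 14, with 719 probe sets at an unadjusted p under 0.05 against 1949 with it. A fit to the Ws and Col-0 means alone gave 67 and 119, a pseudocount of 64 gave 21 and 32, and a minimum of 4-fold gave 5 and 24. Leaving out each replicate of an accession in turn gave 0 to 3 higher and 1 to 17 lower, and the lone replicate is then assumed to vary like the other lines. All other alternatives with a test stayed within 1.5 times of both counts. The probe sets without overlap (44 higher, 101 lower) became 20 and 56 with a pseudocount of 64, 6 and 29 at 4-fold, 383 and 348 with no fold threshold, and 67 to 153 and 162 to 228 with a replicate left out. The 72, 29 and 44 probe sets with QK on the Ws side, the Col-0 side and both became 39, 16 and 21 with a pseudocount of 64, 21, 7 and 7 at 4-fold, and 259, 115 and 357 with no fold threshold. With a replicate left out they were 78 to 158, 35 to 65 and 92 to 188. With a pseudocount of 1 there were 60 higher and 135 lower without overlap, and 88, 41 and 66 for QK. Of the 26 named called genes 5 stayed called without the replicate block, 20 with a pseudocount of 64, and 7, 7, 1 and 6 without Ws replicate 1, Ws replicate 2, Col-0 replicate 1 and Col-0 replicate 2. The cause was not tested, and these last fits hold fewer samples. The arrays of replicate 1 alone allow no test, and there 15 of the 26 values moved by less than the spread, 11 by more, and 0 changed sign. Signals near the dim end of the array limit the size of a difference.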
